A study of Homo sapiens with 6 samples.

Results

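Intestinal and cancer stem cell markers are genes used to recognise the cells that renew the gut epithelium and the cells that are thought to sustain colorectal tumours. In the crypt, Wnt signalling keeps stem cells at the base, where LGR5, ASCL2, OLFM4 and SMOC2 are made, and it weakens as cells move up and differentiate. Other markers, such as CD44, PROM1 (CD133) and ALDH1A1, were taken from sorting schemes for tumour-initiating cells, and DCLK1 marks tuft cells in the normal mouse gut and a subset of cells in colorectal tumours. CNOT7, the gene that was depleted here, encodes a deadenylase of the CCR4-NOT complex, which shortens the poly(A) tails of mRNAs. The 10 genes described below, of 58735 in the count table, were DCLK1, DCLK2, LGR5, ASCL2, OLFM4, PROM1, CD44, SOX9, ALDH1A1 and SMOC2. They were picked by name, with the difference between knockdown and control known for at least DCLK1, so their differences between the groups are given as a description and support no test.

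RNA was sequenced from 3 libraries labelled CNOT7 control (Nc) and 3 labelled CNOT7 knockdown (sh), all from untreated cells. The knockdown cells carried an shRNA against CNOT7 as a stable line, and which shRNA each library carried is not given in the sources used here. The labels name the cells sw480, a human colorectal cancer line, whereas the paper names HCT116, another colorectal cancer line, for this experiment. Nothing says that the 3 libraries of a group came from separate cultures, so p-values measure the spread between these libraries, which may be technical. Total counts per library ranged from 23788451 to 29104872. Values are CPM (counts scaled to library size after TMM normalization), or, where genes are compared with each other, FPKM, the same per kilobase of gene length. Differences were tested across 17574 genes with edgeR's quasi-likelihood test, a gene was called at a Benjamini-Hochberg adjusted p under 0.05, and fold changes are knockdown over control on the log2 scale with their standard error (SE). CNOT7 itself had 4346, 4445 and 4405 counts in control replicates 1, 2 and 3 and 1222, 1303 and 1150 in knockdown replicates 1, 2 and 3, a log2 fold change of -2.05 (SE 0.0734). Of 10 colorectal epithelial markers, 8 were tested, of which 2 rose, 2 fell and 4 were not called, with log2 fold changes from -0.18 to 0.72. EPCAM lay between 208.0 and 229.7 CPM over the 6 libraries and CDX2 between 39.8 and 44.0 CPM. CDX1 had at most 4 counts and LGALS4 at most 9 counts in any library. Of 10 leukocyte markers, 3 were tested, all with log2 fold changes above 0, and 1 was called higher. The leukocyte marker PTPRC had 0 counts in 5 of 6 libraries and 4 in the other, and the summed level of 10 leukocyte markers was 2.54 to 4.31 CPM in control and 4.38 to 4.97 CPM in knockdown libraries. Summed levels were 9.24 to 10.9 CPM and 10.6 to 12.1 CPM for 10 fibroblast markers, and 3.63 to 4.01 CPM and 4.22 to 5.54 CPM for 8 endothelial markers, in control and knockdown libraries in that order. Of these lists, COL3A1, DCN, FAP, POSTN, CD2 and EMCN had 0 counts in every library. The part of other cell types in the values below was not tested, and in bulk RNA fewer cells of a type and less RNA per cell cannot be told apart.

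DCLK1 (doublecortin like kinase 1) had the largest absolute log2 fold change of the 4 markers that passed the filter on low counts, and it has several transcription starts, so its promoters are shown first. The gene table (ENSG00000133083) puts it at chr13:35768652-36131306 in GRCh38, read from the reverse strand. RefSeq (GRCh38.p14) gives 3 start windows for the gene, each from 250 bases before to 50 bases after a start site. Capitals mark words read by transcription factors of the Wnt, Hippo and AP-1 pathways, searched on both strands: for TCF/LEF the word CTTTGAA, the word CTTTGAT, the word CTTTGTA or the word CTTTGTT, for TEAD the word CATTCC, and for AP-1 the word TGANTCA.
DCLK1, upstream start, chr13:36131890-36132189, reverse strand: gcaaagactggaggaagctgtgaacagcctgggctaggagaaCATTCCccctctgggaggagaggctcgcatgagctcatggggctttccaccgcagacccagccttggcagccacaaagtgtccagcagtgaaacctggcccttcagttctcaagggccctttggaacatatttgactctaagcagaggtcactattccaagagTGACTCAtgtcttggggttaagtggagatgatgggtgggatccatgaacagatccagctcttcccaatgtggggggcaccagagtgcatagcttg
DCLK1, middle start, chr13:36131333-36131632, reverse strand: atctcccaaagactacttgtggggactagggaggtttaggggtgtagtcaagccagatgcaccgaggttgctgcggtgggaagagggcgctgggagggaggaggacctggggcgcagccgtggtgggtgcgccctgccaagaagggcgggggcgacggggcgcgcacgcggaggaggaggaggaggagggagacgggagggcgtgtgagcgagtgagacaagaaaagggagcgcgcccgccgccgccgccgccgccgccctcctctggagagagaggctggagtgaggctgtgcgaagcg
DCLK1, internal start, chr13:35855618-35855917, reverse strand: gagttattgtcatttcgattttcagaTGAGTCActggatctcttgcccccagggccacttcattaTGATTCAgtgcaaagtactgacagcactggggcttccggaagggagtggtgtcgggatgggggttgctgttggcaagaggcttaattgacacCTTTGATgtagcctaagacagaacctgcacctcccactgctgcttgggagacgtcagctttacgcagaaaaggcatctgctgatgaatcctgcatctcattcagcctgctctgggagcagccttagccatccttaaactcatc

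The upstream window held 1 TEAD word and 1 AP-1 word, the middle window held none of the words, and the internal window held 2 AP-1 words and 1 TCF/LEF word. Among all 35116 RefSeq promoter windows of this length, 13.8% held a TCF/LEF word, 14% a TEAD word and 7.71% an AP-1 word. Windows were found for 7 of the 10 genes, 12 windows in all. LGR5, ASCL2 and SOX9 had no window, so their promoters were not searched for these words. A TCF/LEF word was also present in the OLFM4 window, in the ALDH1A1 window and in 1 of 4 PROM1 windows, and an AP-1 word in the OLFM4 window and the same PROM1 window. The deposited counts are per gene, so they do not say which of the DCLK1 starts was used. A match of letters in these windows is a description of the sequence and not of binding.

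Expression of the 10 markers fell into a detected and a near-silent group. SOX9, CD44, ASCL2 and DCLK1 passed the filter on low counts, and the other 6, DCLK2, PROM1, SMOC2, ALDH1A1, OLFM4 and LGR5, had 38 counts or fewer summed over all 6 libraries. SOX9, a transcription factor of crypt base cells that acts below Wnt signalling, had the highest level per length in control libraries, 67.2 ± 1.601 FPKM (SD, n = 3). CD44, the hyaluronan receptor, followed with 31.4 ± 0.893 FPKM (SD, n = 3), ASCL2, the Wnt-driven transcription factor of LGR5-positive stem cells, with 20.8 ± 2.88 FPKM (SD, n = 3), and DCLK1 with 8.67 ± 0.459 FPKM (SD, n = 3). Neighbours in this order did not overlap between libraries from SOX9 down to DCLK1, and DCLK2 came next with 0.0724 ± 0.0600 FPKM (SD, n = 3). Below DCLK1, each gene overlapped the next. In knockdown libraries the order of the first 4 was the same, but CD44 at 29.01 ± 1.01 FPKM (SD, n = 3) and ASCL2 at 26.8 ± 3.96 FPKM (SD, n = 3) overlapped, and DCLK1 stood at 3.54 ± 0.285 FPKM (SD, n = 3). Among all tested genes, the control levels of SOX9, CD44, ASCL2 and DCLK1 lay above 97.3%, 92.3%, 86.9% and 69.3% of genes. The length used for DCLK1 was 14375 bases, all its exons together, which makes its FPKM low for a gene with short and long transcripts. Lengths of the other genes were taken in the same way, such as 10004 bases for CD44 and 3935 for SOX9, and the order rests on them. Without the division by length, control means were 314.5 CPM for CD44, 264.3 for SOX9, 124.7 for DCLK1 and 38.6 for ASCL2, another order.

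**Figure D1:**
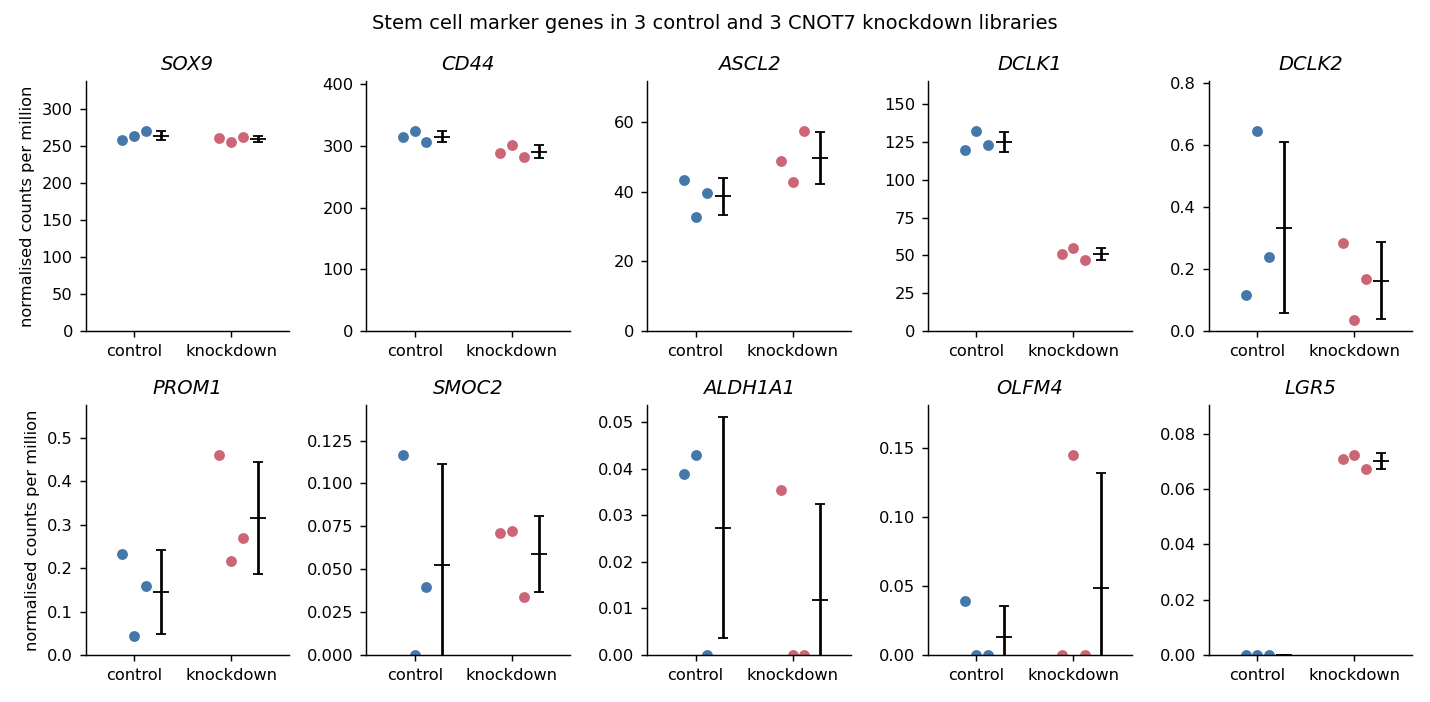
Normalised counts in CPM (y axis, from 0, a scale of its own in each panel) of the 10 markers in the 3 control (blue) and 3 knockdown (red) libraries, with the mean and SD as a black bar, ordered by control level per length. DCLK1 sits between 119.4 and 132.1 CPM in control and between 46.8 and 55.0 CPM in knockdown libraries, and the 6 markers from DCLK2 on stay below 1 CPM in every library.

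DCLK1 encodes a microtubule-binding protein kinase. It was at 119.4, 132.1 and 122.6 CPM in control replicates 1, 2 and 3 and at 50.8, 55.0 and 46.8 CPM in knockdown replicates 1, 2 and 3. Every knockdown library lay under every control library, and this difference was known when the gene was picked. Its log2 fold change was -1.29 (SE 0.0680), so that 0.408 of the control level was left, and 80 of the 17574 tested genes had a lower log2 fold change. Leaving out any 1 library kept it between -1.35 and -1.24. No 50-base stretch of the annotated DCLK1 transcripts occurs in a transcript of another gene, DCLK2 included, and none of its exonic bases is shared with another annotated gene. ASCL2 (ENSG00000183734) lies at chr11:2268495-2270952. It was at 43.3, 32.8 and 39.7 CPM in control replicates and at 48.8, 42.8 and 57.3 CPM in knockdown replicates 1, 2 and 3. Its groups overlapped, since knockdown replicate 2 lay under control replicate 1. Its log2 fold change was 0.36 (SE 0.104), and without control replicate 2, knockdown replicate 1 or knockdown replicate 3 it was 0.26, 0.36 and 0.24 and no longer called.

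CD44 (ENSG00000026508) lies at chr11:35138870-35232402. It was at 314.1, 323.6 and 305.7 CPM in control replicates 1, 2 and 3 and at 288.5, 301.1 and 281.1 CPM in knockdown replicates 1, 2 and 3. The groups did not overlap, but the distance between them was small, with a log2 fold change of -0.12 (SE 0.0510) that was not called. SOX9 (ENSG00000125398) lies at chr17:72121020-72126420. It was at 257.9, 264.3 and 270.6 CPM in control replicates and at 261.0, 255.6 and 262.9 CPM in knockdown replicates 1, 2 and 3. Its groups overlapped, and its log2 fold change was -0.02 (SE 0.0496). Removal of a trend of the fold change with abundance turned the sign, to 0.04 (SE 0.0478). The fit thus called 2 of the 10 markers, DCLK1 lower and ASCL2 higher, with 2 tested and not called and 6 not tested, beside 25.2% of all tested genes called (13.3% higher and 11.9% lower). Groups that did not overlap were seen for DCLK1 and CD44 among the 4 tested markers, beside 38.8% of all tested genes. The median log2 fold change of the 4 was -0.07, beside 0.004 for all tested genes.

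**Figure D2:**
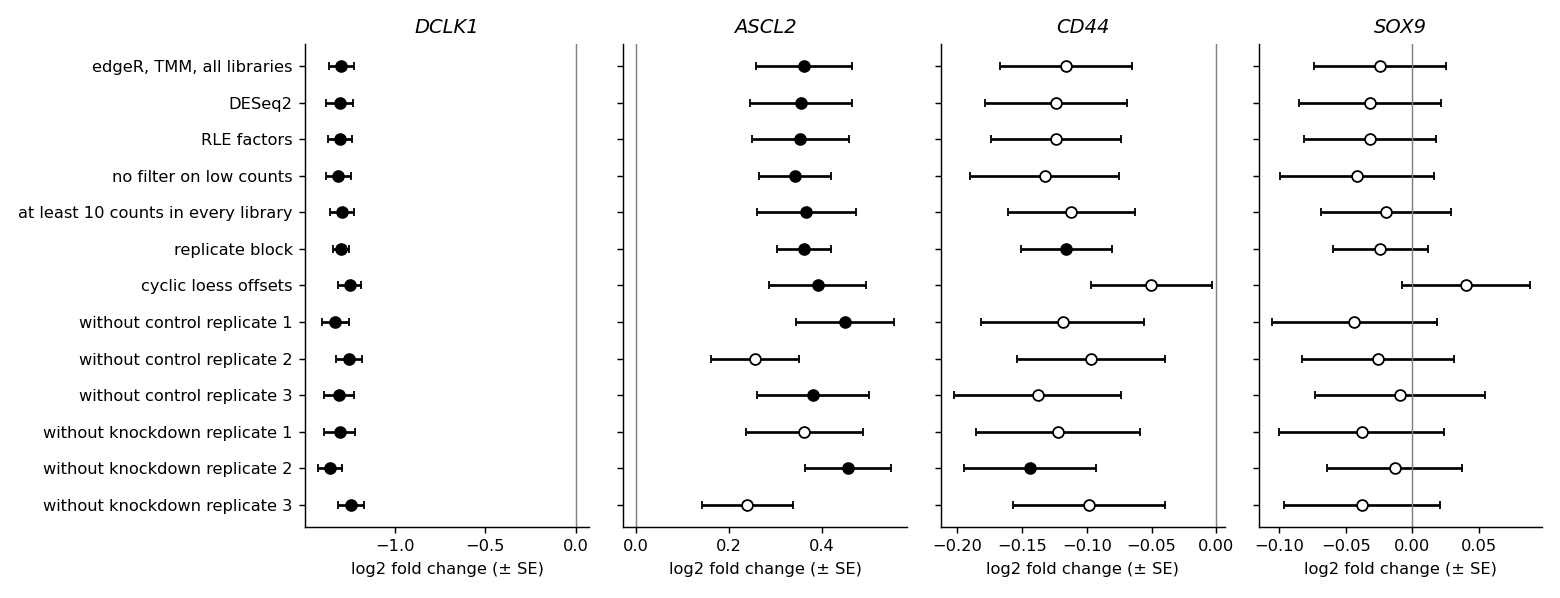
Log2 fold change, knockdown over control, with its SE (x axis, a scale of its own in each panel) for the 4 tested markers under each way of processing (rows). Filled points passed an adjusted p of 0.05. DCLK1 stays between -1.35 and -1.24, ASCL2 between 0.24 and 0.46, CD44 between -0.14 and -0.05, and SOX9 between -0.04 and 0.04.

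The 6 remaining markers were near the limit of detection, and 1 count was worth 0.0336 to 0.0430 CPM depending on the library. A count of 0 in a library allows up to 3 counts, and intervals given here cover counting error only. LGR5, the R-spondin receptor that defines crypt base stem cells, had 0 counts in every control library and 2 counts in every knockdown library. All 6 values were at or under the 3 counts that a count of 0 allows, so no fold change is given. OLFM4, a secreted glycoprotein of crypt base cells, had 1, 0 and 0 counts in control and 0, 4 and 0 in knockdown replicates 1, 2 and 3. SMOC2, a secreted matrix protein of the crypt signature, had 3, 0 and 1 counts and 2, 2 and 1 counts. None of the 3 crypt base genes was thus above 4 counts in any library.

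ALDH1A1, which makes retinoic acid and underlies the ALDH activity assay for tumour stem cells, had 1, 1 and 0 counts in control and 1, 0 and 0 in knockdown replicates 1, 2 and 3. PROM1, the pentaspan membrane glycoprotein CD133, had 6, 1 and 4 counts in control and 13, 6 and 8 in knockdown replicates 1, 2 and 3. The PROM1 groups touched at 6 counts and overlapped in CPM, with 0.233 in control replicate 1 and 0.217 in knockdown replicate 2. The ratio of the summed normalised counts was 2.12, with a 95% exact interval of 1.02 to 4.74. DCLK2, the closest relative of DCLK1, had 3, 15 and 6 counts in control and 8, 1 and 5 in knockdown replicates 1, 2 and 3. Its groups overlapped, and the ratio was 0.505 with a 95% exact interval of 0.241 to 1.02. In a fit with no filter on low counts, PROM1 had a log2 fold change of 1.05 (SE 0.674) and DCLK2 one of -1.002 (SE 0.656), and neither was called.

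The 3′ untranslated region, which lies before the poly(A) tail, was measured for each marker. From GENCODE release 29, the transcript with the longest coding sequence was taken for each gene. The DCLK1 3′ untranslated region had 5572 bases, longer than that of 95.5% of 13611 tested protein-coding genes (median 981 bases), with 9 ATTTA words and 1 TGTANATA word. CD44 had 3069 bases and 7 ATTTA words, SOX9 2033 bases and 8 ATTTA words, and ASCL2 650 bases and 0 ATTTA words. Among the tested protein-coding genes, 66.4% held at least 1 ATTTA word, 26.5% at least 5, and 25.1% a TGTANATA word. These shares were not adjusted for length, so they do not say whether a region holds many words for its length. The untested markers had between 546 bases (ALDH1A1) and 1576 bases (LGR5). LGR5 held 7 ATTTA words and 4 TGTANATA words, more of the latter than DCLK1, and DCLK2 and PROM1 held 1 TGTANATA word each.

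Paralogs of the markers were compared next, in a list that was also drawn up with earlier results of these data known. Of 18 paralogs, 8 were tested, 4 rose with CNOT7 knockdown, 0 fell and 4 were not called, with a median log2 fold change of 0.33. Over all tested genes, 25.2% were called, 13.3% higher and 11.9% lower. SOX8, a transcription factor of the same subgroup as SOX9, had 16, 11 and 16 counts in control and 90, 62 and 82 in knockdown replicates 1, 2 and 3. It rose by 2.23 (SE 0.256) on the log2 scale, from a level near the detection limit. OLFM2 was at 2.18 ± 0.404 CPM in control and 5.64 ± 0.0289 CPM in knockdown libraries (SD, n = 3 each), and it rose by 1.37 (SE 0.162) on the log2 scale. OLFM1, a secreted olfactomedin-domain protein like OLFM4, was at 16.9 ± 0.902 CPM and 37.9 ± 0.918 CPM (SD, n = 3 each), and it rose by 1.17 (SE 0.0767). LGR6, an R-spondin receptor like LGR5, was at 23.4, 22.3 and 25.5 CPM in control and at 29.4, 28.05 and 31.8 CPM in knockdown replicates 1, 2 and 3, a log2 fold change of 0.33 (SE 0.0811, adjusted p = 0.00645 from edgeR). LGR4, the third such receptor, was at 21.4 to 22.7 CPM and 19.6 to 21.6 CPM, with overlapping groups. The ALDH1A1 relatives that were detected were ALDH1A3, at 133.8 ± 4.77 CPM and 147.7 ± 6.78 CPM (SD, n = 3 each), and ALDH1B1, at 63.8 ± 2.85 CPM and 65.2 ± 1.17 CPM (SD, n = 3 each), and neither was called. ASCL5 was at 1.21 to 1.72 CPM and 1.49 to 1.98 CPM and was not called. DCX, DCLK3 and OLFM3 had 0 counts in all 6 libraries, and ASCL3, ASCL4, PROM2, SOX10, ALDH1A2 and SMOC1 were too low to be tested. For ALDH1A3, 27.5% of exonic bases lie opposite an annotated antisense gene, and whether the counting used strand is not given in the sources used here.

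**Figure D3:**
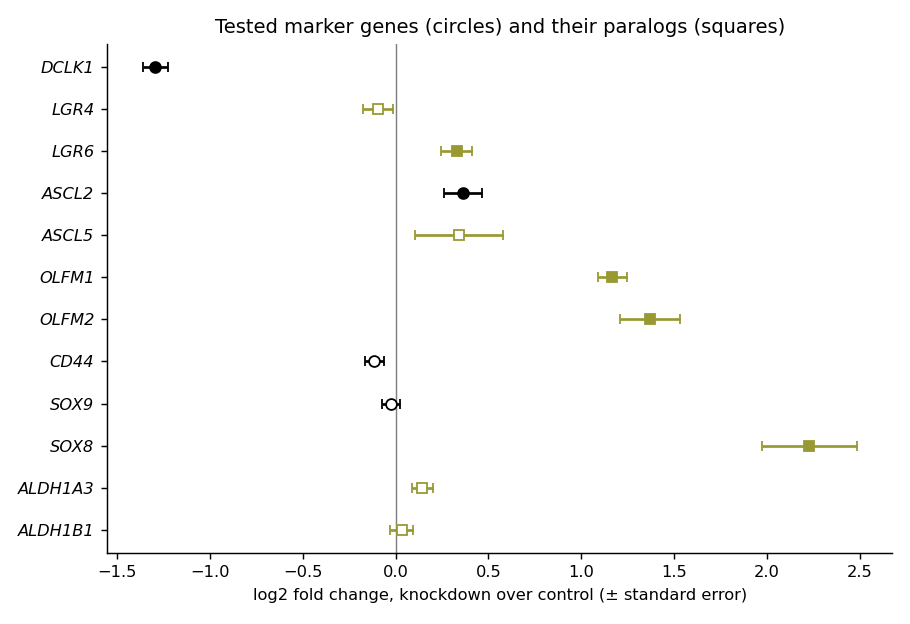
Log2 fold change, knockdown over control, with its SE (x axis) for the 4 tested markers (circles) and their 8 tested paralogs (squares), by family. Filled symbols passed an adjusted p of 0.05. DCLK1 lies at -1.29, while OLFM1, OLFM2 and SOX8 lie at 1.17, 1.37 and 2.23.

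Genes whose level followed that of DCLK1 most closely were found by the root mean square distance of the 6 log2 CPM values, each centred on its control mean. The nearest of all tested genes were AL161431.1 (distance 0.0479 on the log2 scale), ENC1 (0.0603), an actin-binding kelch protein gene, and GDA (0.0626), the guanine deaminase gene. AL161431.1 lies at chr13:109269634-109278512, far from DCLK1 on the same chromosome. ENC1 went from 176.8 ± 6.71 CPM to 75.6 ± 3.44 CPM and GDA from 32.5 ± 1.99 CPM to 12.9 ± 1.41 CPM (SD, n = 3 each). There were 6 genes within a distance of 0.1 of DCLK1. For ASCL2 there were 86, and the nearest were AC125603.2 (0.0258), GPSM1 (0.0322) and AC010997.3 (0.0510). AC010997.3 was near the detection limit, at 0.564 ± 0.0944 CPM in control and 0.745 ± 0.116 CPM in knockdown libraries (SD, n = 3 each), and was not called.

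Further genes of the crypt base and of Wnt feedback were mostly detected, in contrast to LGR5, OLFM4 and SMOC2. Of 22, 21 were tested, 11 rose with CNOT7 knockdown, 2 fell and 8 were not called, with a median log2 fold change of 0.20. The share called over all tested genes was 25.2%, with 13.3% higher and 11.9% lower. ETS2, a transcription factor, was at 137.2 ± 1.24 CPM in control and 219.3 ± 5.76 CPM in knockdown libraries (SD, n = 3 each) and rose by 0.68 (SE 0.0516) on the log2 scale. MSI1, an RNA-binding protein gene used as a crypt stem cell marker, rose by 0.66 (SE 0.137), TNFRSF19 (TROY), a Wnt target receptor, by 0.56 (SE 0.0697), and MEX3A, another RNA-binding protein gene of crypt stem cells, by 0.36 (SE 0.0729). BMI1, a polycomb protein gene that also served as a stem cell marker, was at 37.7, 49.4 and 38.1 CPM in control and at 28.1, 32.5 and 27.9 CPM in knockdown replicates 1, 2 and 3, and it fell by 0.50 on the log2 scale. The readthrough gene COMMD3-BMI1 covers 23.3% of the exonic bases of BMI1. The other fall was SLC12A2 with -0.21 (SE 0.0689), which was not called in 5 of 12 alternative fits. AXIN2, the negative feedback regulator of Wnt signalling, was at 360.8 to 384.9 CPM in control and 323.6 to 359.5 CPM in knockdown libraries and was not called. Another gene shares 25.2% of its exonic bases. Elsewhere in this list, SP5 rose by 0.31 (SE 0.0757), RNF43 by 0.30 (SE 0.0655) and NKD1 by 0.18 (SE 0.0507) on the log2 scale. ZNRF3 and NOTUM were not called. The NKD1 call was lost in 2 of 12 alternative fits, and 59.5% of the exonic bases of RNF43 are shared with other genes on its strand. The HOPX gene had 3 counts in knockdown replicate 3 and 0 elsewhere.

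The wider set of cancer stem cell genes went both ways. Of 21, 17 were tested, 6 rose, 4 fell and 7 were not called, with a median log2 fold change of 0.04. Beside this, 25.2% of all tested genes were called, 13.3% higher and 11.9% lower. The largest rises were in genes of low level. KIT, a receptor tyrosine kinase gene, had 7, 6 and 4 counts in control and 43, 48 and 63 in knockdown replicates 1, 2 and 3, a log2 fold change of 2.94 (SE 0.343). TDGF1 (Cripto), a Nodal co-receptor gene, rose by 1.604 (SE 0.302), ABCG2, the drug efflux pump behind the side population assay, by 1.59 (SE 0.327), and ALDH3A1, an aldehyde dehydrogenase gene, by 0.93 (SE 0.120). ABCG2 had 8, 12 and 10 counts in control replicates 1, 2 and 3. KIT and ABCG2 passed the filter on low counts only through the knockdown libraries, so their place among the rises is tied to that filter. With at least 10 counts asked of every library, 4 genes of this set rose. SOX2, a pluripotency factor, fell by 0.56 on the log2 scale, with 4.27 ± 0.789 CPM in control and 2.89 ± 0.328 CPM in knockdown libraries (SD, n = 3 each), and was not called without control replicate 3 or without knockdown replicate 3. Without control replicate 3, 6 genes of this set were called and 0 of them fell, and 2 fell without knockdown replicate 3 or with cyclic loess offsets. Among the falls, ITGA6 was not called in 5 and L1CAM in 3 of 12 alternative fits. The remaining fall was CXCR4, by 0.24 (SE 0.0618) on the log2 scale, which was not called without control replicate 3. MYC rose by 0.39 (SE 0.0505) and MET by 0.34 (SE 0.0727), and both kept their calls in all 12. EPCAM, ALCAM, CD24 and ITGB1, also surface markers, were not called, with log2 fold changes between -0.29 and 0.05.

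Tuft cell genes were examined because DCLK1 marks tuft cells in the normal mouse gut. Of 24, 6 had 0 counts in every library and 10 were tested, of which 2 rose, 2 fell and 6 were not called, with a median log2 fold change of 0.17. Shares over all tested genes were 25.2% called, 13.3% higher and 11.9% lower. POU2F3, the transcription factor that specifies tuft cells, was at 0.584 to 0.731 CPM in control and 0.689 to 0.974 CPM in knockdown libraries and was not called. TRPM5, the tuft cell cation channel, had at most 5 counts in any library. The rises were PTGS1 (log2 fold change 1.30, SE 0.215), which encodes cyclooxygenase 1, and PLCG2 (0.41, SE 0.0986), which encodes a phospholipase. The falls were PLCB2 (-0.77, SE 0.242) and SOX4 (-0.36, SE 0.0676), and the calls for PLCB2 and PLCG2 were lost in 3 and 1 of 12 alternative fits.

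Around CD44, whose own level was not called, genes for its ligands, cytoskeletal linkers, shedding proteases and splicing factors were counted. Of 20, 18 were tested, 5 rose, 7 fell and 6 were not called, with a median log2 fold change of -0.11. Beside these counts and those of the retinoic acid list below, 25.2% of all tested genes were called, 13.3% higher and 11.9% lower. EZR (ezrin), which links the CD44 tail to actin, was at 272.0, 262.5 and 262.1 CPM in control and at 192.4, 185.3 and 188.2 CPM in knockdown replicates 1, 2 and 3, and it fell by 0.49 (SE 0.0503) on the log2 scale. NF2 (merlin), which also binds the CD44 tail, fell by 0.36 (SE 0.0668), and SDC1 (syndecan 1), a heparan sulfate proteoglycan gene, fell by 0.53 (SE 0.0682). CD74, the invariant chain that signals together with CD44, was at 37.7 ± 1.18 CPM and 73.4 ± 4.37 CPM (SD, n = 3 each) and rose by 0.96 (SE 0.0670), and HYAL1, a hyaluronidase gene, rose by 0.47 (SE 0.117). Around ALDH1A1, of 18 retinoic acid pathway genes 13 were tested, 5 rose, 1 fell and 7 were not called, with a median log2 fold change of 0.24. DHRS3, a retinaldehyde reductase gene, rose by 0.42 (SE 0.0724), RARA, a retinoic acid receptor gene, by 0.36 (SE 0.0883), and STRA6, a retinol uptake receptor gene, by 0.25 (SE 0.0618). RDH11, a retinol dehydrogenase gene, fell by 0.25 on the log2 scale. CRABP1, a retinoic acid binding protein gene at 14 counts or fewer in each control library, rose by 1.23 (SE 0.401), and this call was lost in 6 of the 11 alternative fits that tested it. Annotated genes on the other strand cover 47.2% of the exonic bases of CRABP1 and 17.9% of those of RARA. Without knockdown replicate 1, 3 retinoic acid pathway genes were called.

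Genes of regenerating and fetal-type epithelium, a state described as an alternative to the LGR5-positive one, included more falls than rises. Of 18, 15 were tested, 8 fell, 1 rose and 6 were not called, with a median log2 fold change of -0.25. Over all tested genes, 25.2% were called, 11.9% lower and 13.3% higher. ANXA1, an annexin gene, was at 7.004, 7.31 and 5.79 CPM in control and at 3.26, 4.35 and 1.65 CPM in knockdown replicates 1, 2 and 3, and it fell by 1.12 (SE 0.228) on the log2 scale. TNFRSF12A, the receptor of TWEAK, fell by 0.63 (SE 0.0934), and S100A6, a calcium-binding protein gene, by 0.45 (SE 0.0718). KRT7, a keratin gene, fell by 0.78 (SE 0.259) but was not called in 5 of 12 alternative fits. The single rise was TRIM29, by 0.43 (SE 0.0611). CLU (clusterin), which marks revival stem cells in the mouse gut, was at 137.7 to 143.0 CPM and 139.1 to 147.8 CPM and was not called.

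Markers of differentiated cells were largely silent. Of 20 absorptive cell genes, 8 had 0 counts in every library and 5 were tested, of which 4 rose and 0 fell, with a median log2 fold change of 1.24. Beside this count and that of the secretory list below, 25.2% of all tested genes were called, 13.3% higher and 11.9% lower. SLC5A1, the intestinal sodium and glucose cotransporter, had 15, 13 and 15 counts in control and 140, 118 and 115 in knockdown replicates 1, 2 and 3, a log2 fold change of 2.90 (SE 0.220). ALPI, intestinal alkaline phosphatase, had 4, 2 and 8 counts and 43, 37 and 38 counts, a log2 fold change of 2.84 (SE 0.399). ALPI passed the filter on low counts only through the knockdown libraries, so its place in the count and median above is tied to that filter. With at least 10 counts asked of every library, 3 absorptive cell genes rose and 0 fell. CEACAM1, a cell adhesion molecule of the apical surface, rose by 1.24 (SE 0.0985), with 8.52 ± 0.817 CPM in control and 20.1 ± 0.623 CPM in knockdown libraries (SD, n = 3 each). VIL1 (villin), the brush border actin bundler, rose by 0.72 (SE 0.0955), with 19.9 ± 2.01 CPM and 32.7 ± 3.68 CPM (SD, n = 3 each). For VIL1, 44% of exonic bases lie opposite the gene USP37. KRT20 had at most 4 counts in any library, and FABP1 and SI had 0. Of 25 secretory cell genes, 3 were tested and 1 rose, the granule protein gene CHGB, by 1.25 (SE 0.243) on the log2 scale, while MUC2 and FCGBP were not called.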

How the data were processed

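The authors isolated total RNA with TRIzol and made libraries with the NEBNext Ultra kit. They deposited raw counts per gene, without normalization, for 6 libraries. The submitters' processing notes name CASAVA 1.8, fastp, HISAT2 2.0.5, featureCounts 1.5.0-p3 and DESeq2 1.20.0 on GRCh38. Strandedness is not given in the sources used here. The deposited gene length, in another column, is a length in bases (unit: other), and 0 columns of other samples were left out. All 58735 gene identifiers occur in GENCODE release 29, and 58724 have the same start and end there.

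Counts were filtered with filterByExpr, TMM-normalised and tested with edgeR 4.0.16 (glmQLFit, glmQLFTest) in R 4.3.3, with no replicate term and Benjamini-Hochberg adjustment over 17574 genes at 0.05. Standard errors were obtained from the log2 fold change and the F statistic, as its size over sqrt(F). Alternatives were DESeq2 1.42.0, RLE factors, no filter, a replicate term, a minimum of 10 counts in each library, cyclic loess offsets (limma 3.58.1) and each library left out. The edgeR, DESeq2 and cyclic loess fits were run on simulated counts with 200 changed genes, fewer than were called here. No result above rests on that run. Replicate pairs differed by more than sampling (chi-square per gene 3.20 to 10.7), so none was a copy. Depth was 23788451 to 29104872 counts per library. Figures were drawn with matplotlib 3.10.9.

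The 10 markers and all lists were chosen with earlier results of these data known. Named genes were CNOT7, the markers, their detected paralogs, and of each other list up to 5 called genes with the largest absolute log2 fold change and groups that did not overlap, with the defining markers of the cell type lists. The 3 nearest genes were taken for each of the 2 tested markers with the largest change. AXIN2, SLC12A2, HOPX, ITGA6, L1CAM, ALCAM, CD24, ITGB1, CLU, TRIM29, KRT20, FABP1, SI, MUC2 and FCGBP were added after their values were seen. So were SP5, RNF43, NKD1, ZNRF3, NOTUM, CXCR4, MYC and MET. Some genes that the rule names are not reported here.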

Additional observations from a re-analysis of the deposited data

How the results depend on the processing

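Of the 4 tested markers, DCLK1 kept its call and direction in all 12 alternatives, with log2 fold changes from -1.35 to -1.24. ASCL2 kept its direction in all 12 and its call in 9. CD44 passed the threshold in 2, with the replicate term (-0.12) and without knockdown replicate 2 (-0.14), and SOX9 changed sign in 1, to 0.040 with cyclic loess offsets, whose adjusted p was 0.598. With 1 library left out, the number of called markers ranged from 1 to 3, that of the other cancer stem cell genes from 6 to 10 and that of the retinoic acid pathway genes from 3 to 6. The total called in each other list with alternatives stayed within 1.5 times its main count, but counts in 1 direction moved further. Falls went from 4 to 0 among the cancer stem cell genes without control replicate 3, from 2 to 1 among the crypt genes in 5 alternatives and from 2 to 1 among the tuft cell genes in 3. Rises went from 2 to 1 among the tuft cell genes without knockdown replicate 1, from 1 to 2 among the fetal and regenerative genes in 3 alternatives, and from 5 to 3 and 2 among the retinoic acid pathway genes without control replicate 3 and knockdown replicate 1. The cause was not tested. The epithelial, fibroblast, leukocyte and endothelial lists were not recomputed. The number of genes called over the whole table was 4424, from 3030 to 4542 with 1 library left out, and 6508 with the replicate term as a block. Correlations of the deviations of same-numbered libraries were 0.0228, 0.153 and -0.0153 for replicates 1, 2 and 3. Between libraries of different number they ran from -0.151 to 0.132, so the value for replicate 2 was the highest. Whether equal numbers mark pairs is not given in the sources used here, and the main fit had no replicate term. With that term the SE of ASCL2 was 0.0587, beside 0.104 without it. The replicate block called 3 of the 10 markers, CD44 besides DCLK1 and ASCL2. The 6 markers near the detection limit failed the filter on low counts, edgeR called none of them without it (adjusted p from 0.243 to 0.967), and their low counts limit the precision.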
